A study of Mus musculus with 8 samples.

Results

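Mesenchymal transition factors and mesenchymal structural markers were examined in polarized intestinal epithelial cells exposed to 2 types of interferon (IFN). The group holds 10 genes, of which 6 encode transcription factors (Twist1, Twist2, Zeb1, Zeb2, Snai1 and Snai2) and 4 encode structural markers (Vim, Cdh2, Fn1 and Sparc). Its members were every probe that the array files assign to 1 of these gene names, which gave 13 of the 39429 non-control probes. Cdh2, Sparc and Zeb2 have 2 probes each and the other 7 genes have 1. The cells were IEC10, a mouse epithelial line from the intestine that has been immortalized. They were grown for 21 days on transwell inserts, where they polarize and form a barrier, and all groups share this culture. Cells were left in medium (control, replicates 2 and 3), stimulated with IFN-λ2 at 20 ng/mL (replicates 1, 2 and 3) or stimulated with IFN-β at 500 U/mL (replicates 1, 2 and 3), each for 9 h. One cell line and one dose of each interferon were used, and the doses are in different units, so that a difference between the interferons is a difference between these stimulations. The members were selected on the basis of their processed signal in these 3 groups, with results of these arrays known. Their values are therefore given as a description, without a p-value for any member.

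Epithelial-mesenchymal transition is a program in which epithelial cells lose junctions and polarity and take on a migratory, matrix-producing state. TWIST proteins are basic helix-loop-helix factors, whereas SNAI and ZEB proteins are zinc-finger repressors that bind E2-box sequences in promoters of junction genes such as that of E-cadherin. Transforming growth factor-β (TGF-β) is a classical inducer of these factors, and vimentin, N-cadherin, fibronectin and SPARC are products that mark the mesenchymal state. Cultured epithelial lines often hold measurable amounts of them. IFN-λ2 is a type III interferon that signals through a receptor largely restricted to epithelial cells, and IFN-β is a type I interferon whose receptor is found on most cells.

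Promoter sequence was available for 6 of the 10 genes (Twist1, Twist2, Vim, Zeb2, Snai1 and Sparc), with 9 windows in all because Zeb2 has 4 start sites. The windows reach from 250 bases before to 50 bases after the start of the gene in RefSeq on GRCm38.p6. Shown here, 5′ to 3′, are the 240 bases before and the first 10 bases of 4 genes that the values below turn on. They are the transcription factor with the widest difference between groups (Twist1), the transcription factor closest to background (Snai1) and 2 abundant markers (Vim and Sparc). Capitals mark the E2-box, searched as CACCTG on both strands, which reads CAGGTG on the opposite strand.
Twist1, chr12:33957431-33957680, plus strand: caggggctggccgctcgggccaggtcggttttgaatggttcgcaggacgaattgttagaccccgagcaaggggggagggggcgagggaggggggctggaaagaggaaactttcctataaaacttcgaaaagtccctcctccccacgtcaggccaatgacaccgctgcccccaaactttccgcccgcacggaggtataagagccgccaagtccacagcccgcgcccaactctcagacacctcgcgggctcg
Snai1, chr2:167537955-167538204, plus strand: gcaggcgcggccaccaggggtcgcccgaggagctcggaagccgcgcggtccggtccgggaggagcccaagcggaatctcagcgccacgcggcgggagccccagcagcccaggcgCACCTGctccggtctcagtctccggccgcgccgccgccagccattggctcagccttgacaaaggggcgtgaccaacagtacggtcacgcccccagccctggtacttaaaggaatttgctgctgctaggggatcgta
Vim, chr2:13574071-13574320, plus strand: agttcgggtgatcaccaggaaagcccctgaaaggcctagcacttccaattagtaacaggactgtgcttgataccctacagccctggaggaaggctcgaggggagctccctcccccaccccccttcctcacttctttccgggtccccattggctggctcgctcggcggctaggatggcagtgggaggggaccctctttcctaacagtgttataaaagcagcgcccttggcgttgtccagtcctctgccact
Sparc, chr11:55420071-55420320, minus strand: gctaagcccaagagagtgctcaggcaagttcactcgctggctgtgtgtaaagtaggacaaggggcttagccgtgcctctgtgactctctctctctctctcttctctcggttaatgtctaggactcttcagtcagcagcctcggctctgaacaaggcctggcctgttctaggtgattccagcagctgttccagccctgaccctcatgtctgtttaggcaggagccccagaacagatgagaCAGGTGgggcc
The E2-box was present in 2 of the 9 windows, starting at base -126 of Snai1 and at base -1 of Sparc relative to the start site. Over all 32851 promoter windows of the same length, 20.2% held it. The core of the interferon-stimulated response element, searched in the shortened form GAAANNGAA on both strands, was present in 0 of the 9 windows and in 8.56% of all windows. The gamma-activated sequence, searched as TTCNNNGAA on both strands, was present in 2 windows, both of them overlapping windows of Zeb2, and in 8.30% of all windows. These letter matches describe the windows alone and are no evidence of binding. The windows of the members had a median G and C content of 59.3%, compared with 52.7% over all windows.

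Expression was measured on 8 one-color Agilent arrays, and values are given in normalized gPS units, the processed signal scaled to the same 75th percentile on every array. Values under 15 units were set to 15. The 2 control arrays and 3 arrays per interferon limit the precision, and the labels do not say whether replicates were separate cultures, so that the spread may be technical. Each slide carried 1 replicate number and was scanned at once, and each treatment had the same position on every slide, so that position and treatment cannot be told apart. The array of IFN-λ2 replicate 2 had the highest signal of negative control features, with a median of 7.47 units against 3.03 on the lowest array, and the fewest probes well above background (20991, compared with up to 24252). Of the 13 member probes, 11 were well above background on all 8 arrays. The exceptions were the second probe of Zeb2 (chr2:44840038-44840097, mm9), which was at 15 units on all 8 arrays and was left out of the comparisons, and the probe of Snai1. The remaining 12 probes, 6 of factors and 6 of markers, were among the 25582 probes that passed the filter on dim signals. Probe positions come from the array annotation, which uses mm9, and the exon or UTR that a probe lies in was not determined here.

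IFN-λ2-stimulated cells had a lower mean signal than control cells for all 12 tested probes of mesenchymal factors and markers. The dim probe of Snai1 changed sign with normexp background correction. The second probe of Cdh2 was lower on control replicate 3 (7226 units) than its mean after IFN-λ2 (7416 units). After IFN-β the differences from control fell on both sides of 0. The median log2 difference from control was -0.86 after IFN-λ2, a 1.81-fold lower signal, and 0.01 after IFN-β. By class, the median after IFN-λ2 was -0.88 for the 6 factor probes and -0.68 for the 6 marker probes. After IFN-β it was -0.11 for the factors, with 4 of 6 below control, and 0.09 for the markers, with 5 of 6 above control, and the difference between the classes was not tested. Over all 25582 probes tested, the corresponding medians were 0.01 and 0.01. Between the 2 interferons the median of the members was -0.84 on the log2 scale, compared with 0.00 over all probes. For 10 of the 12 probes the 3 IFN-λ2 arrays were below each of the 5 other arrays, a pattern that 11.9% of all tested probes show. In an array of cultured cells, fewer cells with a transcript and less transcript per cell cannot be told apart.

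**Figure D1:**
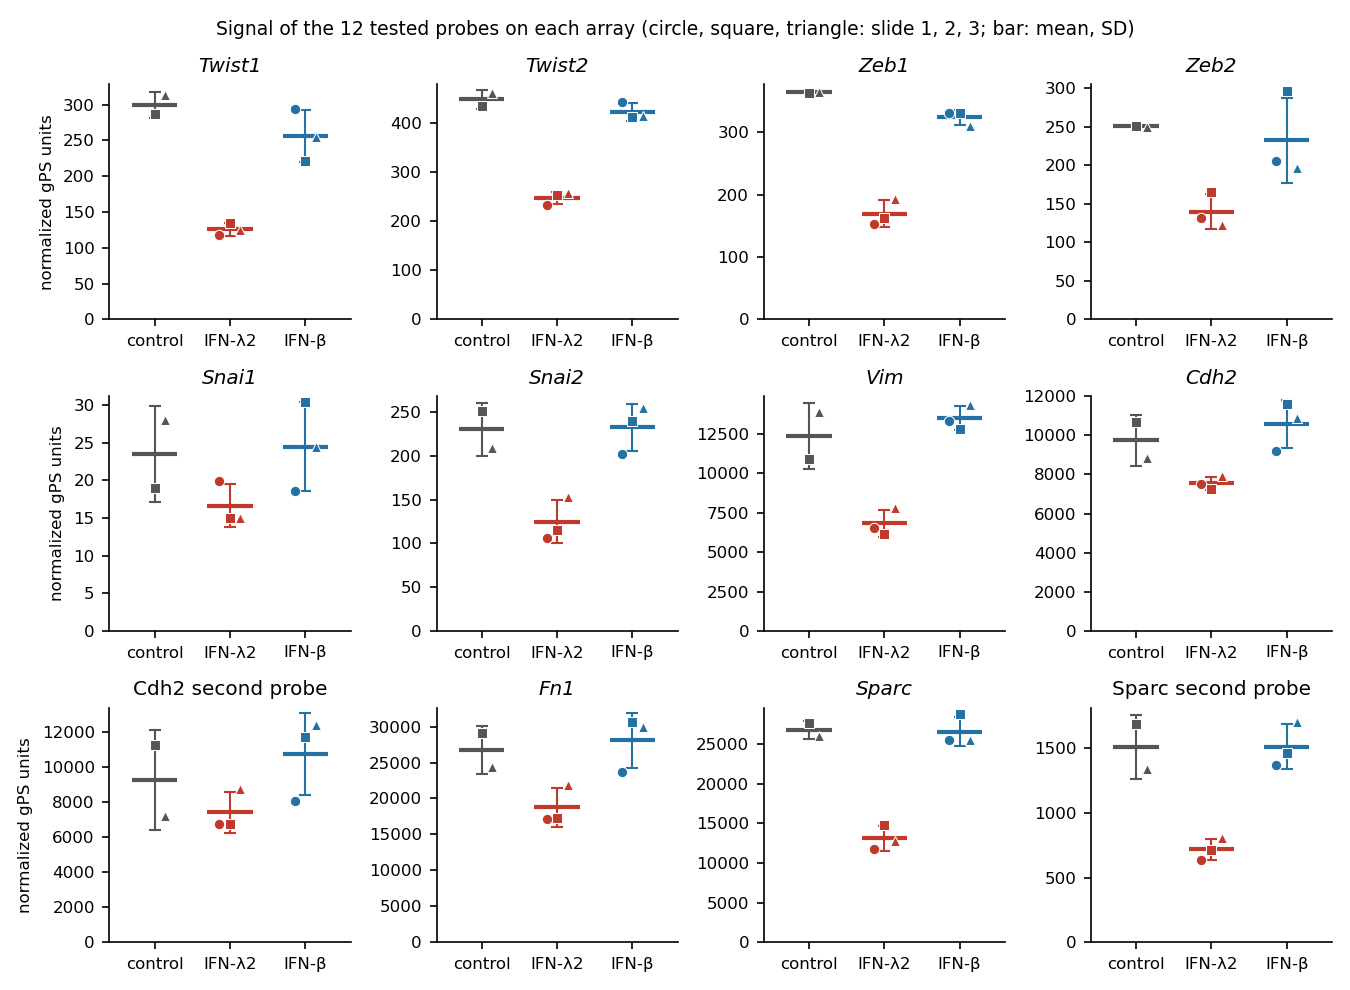
Signal of each tested member probe in normalized gPS units (linear axis from 0) on each of the 8 arrays, with the group mean as a horizontal bar and the SD as whiskers. Circles, squares and triangles are slides 1, 2 and 3. Except for Snai1 and the second probe of Cdh2, the 3 red IFN-λ2 points lie below all control and IFN-β points.

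Twist1 showed the widest difference from control among the members, while against IFN-β both probes of Sparc differed more. TWIST1 is a basic helix-loop-helix factor that can repress E-cadherin and is required in mesoderm development. Its probe (chr12:34644411-34644470, plus strand) read 287 and 313 units on the control arrays, 117, 135 and 125 units after IFN-λ2 and 294, 221 and 254 units after IFN-β. The IFN-λ2 arrays lay far below all others, while the IFN-β arrays overlapped the controls. The group means were 300.0 ± 18.1 (SD, n = 2), 126 ± 8.90 (n = 3) and 257 ± 36.3 units (n = 3). The log2 difference of IFN-λ2 from control was -1.25 with a standard error (SE) of 0.13, a 2.38-fold lower signal, and from IFN-β it was -1.02 (SE 0.12). For IFN-β against control the log2 difference was -0.23 (SE 0.13).

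Twist2, which encodes the closely related factor TWIST2, had a coefficient of variation of 4.19% in control cells, 5.18% after IFN-λ2 and 4.16% after IFN-β. Its probe (chr1:93744519-93744577, plus strand) read 434 and 461 units in control cells, 233, 253 and 257 units after IFN-λ2 and 442, 411 and 413 units after IFN-β. Again the IFN-λ2 arrays were separate from all others, and the control and IFN-β arrays overlapped. The log2 difference was -0.86 (SE 0.08) from control and -0.77 (SE 0.07) from IFN-β, or 1.81-fold and 1.71-fold lower. IFN-β and control differed by -0.08 (SE 0.08).

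Zeb1, a zinc-finger and homeodomain repressor of epithelial genes, had the second widest difference among the factors. Its probe (chr18:5774613-5774672, plus strand) read 362 and 365 units in control cells, 153, 162 and 193 units after IFN-λ2 and 331, 331 and 309 units after IFN-β. The IFN-λ2 signal was 2.16-fold lower than control (log2 difference -1.11, SE 0.11) and 1.92-fold lower than after IFN-β (-0.94, SE 0.10). Zeb1 was the sole member whose IFN-β and control arrays did not overlap, with the 3 IFN-β arrays below both controls by a log2 difference of -0.17 (SE 0.11). Of all tested probes, 26.3% had non-overlapping IFN-β and control arrays in either direction.

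Zeb2, the paralog of Zeb1, was more variable. The probe with signal (chr2:44842774-44842833, minus strand) read 250.9 and 250.4 units in control cells, 131, 166 and 123 units after IFN-λ2 and 205, 296 and 196 units after IFN-β. The 3 IFN-λ2 arrays were the lowest, and the IFN-β arrays lay on both sides of the controls. The log2 difference was -0.85 (SE 0.20) from control and -0.72 (SE 0.18) from IFN-β. For IFN-β against control it was -0.13 (SE 0.20).

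Snai1 and Snai2 encode the zinc-finger repressors SNAIL and SLUG and differed in how well they could be measured. The Snai1 probe (chr2:167368073-167368132, plus strand) read 19.1 and 28.0 units in control cells, 20.0, 15 and 15 units after IFN-λ2 and 18.6, 30.4 and 24.4 units after IFN-β. It was well above background on 1 of 2, 1 of 3 and 2 of 3 of these arrays, and all groups overlapped. The log2 difference of -0.49 (SE 0.26) from control and of -0.54 (SE 0.23) from IFN-β rests on values at or near the lower limit, and with normexp background correction it became 0.06 and 0.15. A difference in Snai1 was thus not detectable at this signal. The Snai2 probe (chr16:14709361-14709420, plus strand), in contrast, read 252 and 209 units in control cells, 106, 116 and 153 units after IFN-λ2 and 203, 240 and 255 units after IFN-β. Each IFN-λ2 array was below every other array, and the IFN-β and control arrays overlapped. The log2 difference for Snai2 was -0.90 (SE 0.18) from control, -0.91 (SE 0.16) from IFN-β, and 0.01 (SE 0.18) between IFN-β and control.

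Vim encodes vimentin, the intermediate filament protein of mesenchymal cells. Its probe (chr2:13504232-13504291, plus strand) read 10894 and 13859 units in control cells, 6519, 6148 and 7810 units after IFN-λ2 and 13323, 12825 and 14354 units after IFN-β. No IFN-λ2 array reached the lowest array of the other groups. The log2 difference was -0.86 (SE 0.14) from control and -0.99 (SE 0.13) from IFN-β, or 1.81-fold and 1.99-fold lower. The difference from control was -0.68 with control replicate 2 as the only control and -1.03 with control replicate 3, since the 2 control arrays differed from each other.

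Sparc encodes a secreted, collagen-binding matricellular protein and was the marker with the widest difference. Its brighter probe (chr11:55208939-55208998, minus strand) read 27606 and 25966 units in control cells, 11769, 14857 and 12742 units after IFN-λ2 and 25526, 28760 and 25489 units after IFN-β. The second probe (chr11:55208003-55208061) read 1682 and 1334 units, 638, 709 and 804 units, and 1367, 1461 and 1698 units in the same order. On both probes the IFN-λ2 arrays were separate from all others and the remaining groups overlapped. The log2 differences of the 2 probes were -1.04 (SE 0.12) and -1.07 (SE 0.15) from control, and -1.02 (SE 0.10) and -1.07 (SE 0.14) from IFN-β. IFN-β and control differed by -0.01 (SE 0.12) and 0.00 (SE 0.15).

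Cdh2 and Fn1 showed the narrowest differences among the members that were well above background on all arrays. Fn1, which encodes the matrix glycoprotein fibronectin, read 29097 and 24393 units in control cells, 17127, 17338 and 21875 units after IFN-λ2 and 23711, 30614 and 29874 units after IFN-β (chr1:71632116-71632175, minus strand). Its log2 difference was -0.51 (SE 0.16) from control and -0.58 (SE 0.15) from IFN-β, with the IFN-λ2 arrays below all others. Cdh2, which encodes N-cadherin, read 10668 and 8834 units in control cells, 7507, 7263 and 7919 units after IFN-λ2 and 9220, 11603 and 10870 units after IFN-β on its brighter probe (chr18:16747559-16747618, minus strand). The log2 difference of this probe was -0.36 (SE 0.13) from control and -0.48 (SE 0.11) from IFN-β, again without overlap. The second Cdh2 probe (chr18:16747386-16747445) was noisier, with 11247 and 7226 units, 6752, 6730 and 8764 units, and 8070, 11722 and 12372 units. There the groups overlapped, and the log2 differences were -0.29 (SE 0.26) and -0.52 (SE 0.23).

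**Figure D2:**
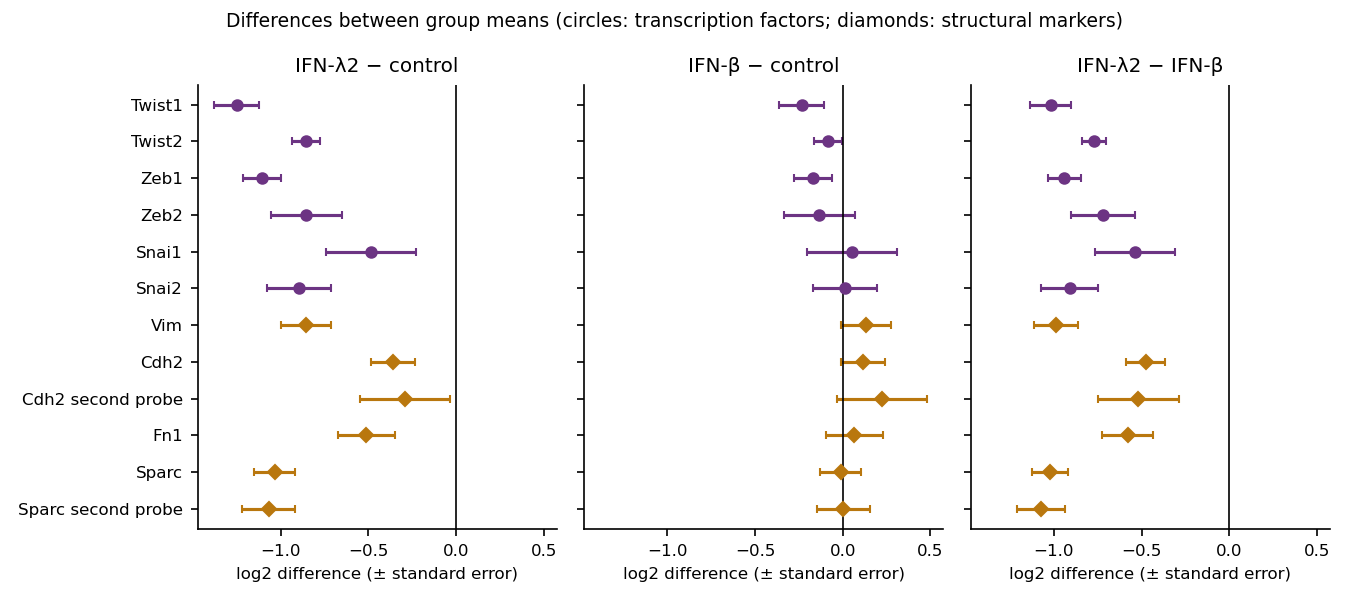
Log2 difference between group means for each tested member probe, with its standard error, in 3 comparisons. Transcription factors (circles) and structural markers (diamonds) lie left of 0 against both control and IFN-β after IFN-λ2, between -1.25 and -0.29 against control, whereas IFN-β minus control lies between -0.23 and 0.23. Snai1 did not stay left of 0 with normexp, nor did the second probe of Cdh2 against control replicate 3 alone.

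With a limma fit to all probes, 8 of the 12 member probes passed an adjusted p of 0.05 in the comparison of IFN-λ2 with control, all of them lower, where 8.28% of all tested probes were lower by the same criterion. They were the probes of Twist1, Twist2, Zeb1, Zeb2, Snai2 and Vim and both probes of Sparc. Nothing is read from this count or from those of the other 2 comparisons below, because the members were chosen on their values in all 3 groups. Of the 12, 4 were at least 2-fold lower, compared with 2.15% of all tested probes, and 10 had IFN-λ2 arrays all below both controls, compared with 23.7%. Zeb2 did not pass without control replicate 2 or 3 or without IFN-λ2 replicate 1 or 3, and Snai2 did not pass without control replicate 2 (neither passed with normexp, nor Zeb2 with no filter on dim probes), so that 6 to 9 probes passed when 1 array was left out.

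In the direct comparison of the 2 interferons, 10 of the 12 probes were lower after IFN-λ2 by this criterion, where 5.34% of all tested probes were. Cdh2 (brighter probe) and Fn1 passed in addition to the 8 named above. The same 10 probes had non-overlapping groups, compared with 15.1% of all tested probes in that direction, and 3 were at least 2-fold lower, compared with 1.46%. The replicate numbers paired the arrays of the 2 interferons, and with the replicate block 8 probes passed, without Cdh2 and Fn1. Of the 8 fits that left out 1 array, Zeb2 did not pass in 7 (it passed without IFN-λ2 replicate 2), Fn1 in 6 (it passed without IFN-λ2 replicate 3 or IFN-β replicate 1), Cdh2 in 5 (it passed without either control or IFN-β replicate 1) and Snai2 in 2 (without IFN-λ2 replicate 1 or IFN-β replicate 3), so that 6 to 9 probes passed. Zeb2 and Fn1 also did not pass with no floor, with no filter on dim probes or with only these 2 groups in the fit, Zeb2 not with quantile normalization, Cdh2 not with no filter, and Cdh2, Snai2 and Zeb2 not with normexp. For IFN-β against control, 0 of the 12 probes passed, where 1.72% of all tested probes did in either direction. At an unadjusted p under 0.05, 0 of the 12 passed in the limma fit and 1 passed with the methods' t-test. The 3 comparisons share arrays, so that they are not independent of each other.

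Within slides, which hold arrays of the same replicate number, the direction was kept for nearly all members. The members were chosen on these same arrays, so that this is a description and no replication. The share of all tested probes that were lower within each slide was not determined. IFN-λ2 was lower than IFN-β for 11 of 12 probes on slide 1, for 12 on slide 2 and for 12 on slide 3, with median log2 differences of -0.93, -0.89 and -0.69. The exception was Snai1 on slide 1, with a difference of 0.10. Against the control of the same slide, IFN-λ2 was lower for 12 probes on slide 2 (median -0.80) and for 11 on slide 3 (median -0.84). The exception there was the second probe of Cdh2 with a difference of 0.28. IFN-β was lower than control for 5 of 12 probes on slide 2 and for 6 on slide 3, with medians of 0.06 and 0.01. Twist1, Twist2 and Zeb1 were below control after IFN-β on both slides, by -0.37 and -0.30, -0.08 and -0.16, and -0.13 and -0.24, respectively. Vim, both probes of Cdh2 and Fn1 were above control on both slides. Their differences were 0.24 and 0.05 for Vim, 0.12 and 0.30 for the brighter Cdh2 probe, 0.06 and 0.78 for the second, and 0.07 and 0.29 for Fn1.

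**Figure D3:**
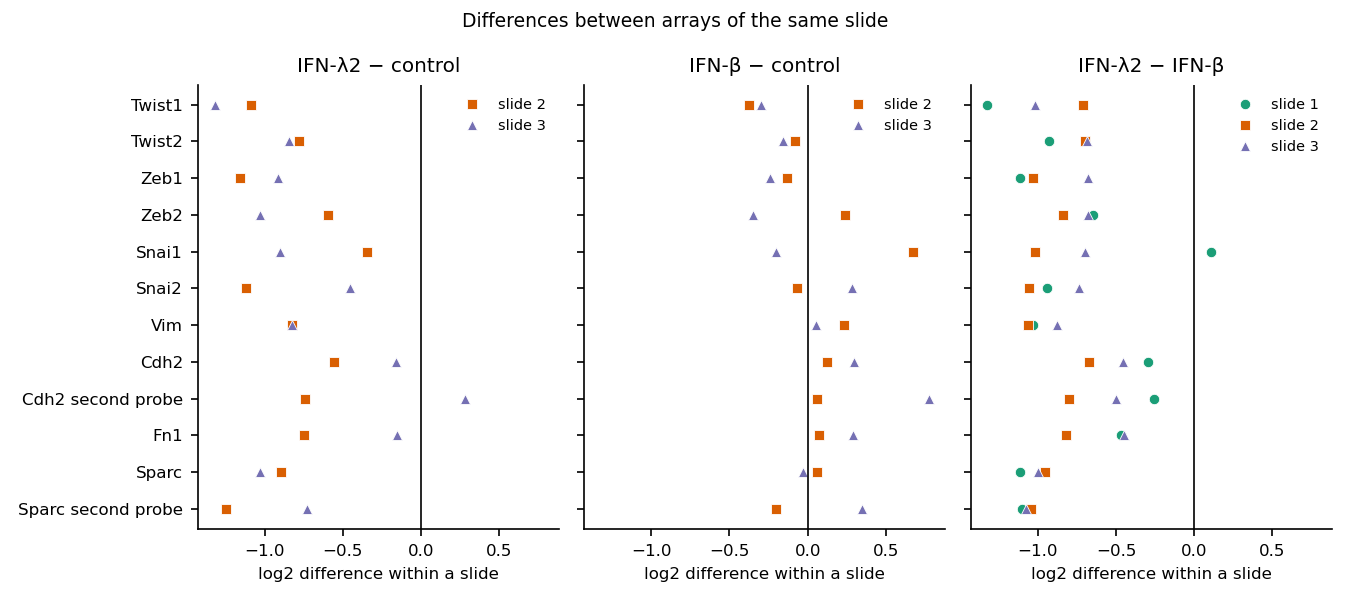
Log2 difference between 2 arrays of the same slide for each tested member probe, with 1 symbol per slide. The IFN-λ2 differences lie left of 0 except for Snai1 on slide 1 (0.10, against IFN-β) and the second probe of Cdh2 on slide 3 (0.28, against control), whereas the IFN-β differences from control fall on both sides.

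The members followed Twist1 to different degrees across the 8 arrays. Pearson's r of log2 values with Twist1, given as a description over 8 arrays that share these 3 groups, was 0.99 for Twist2, 0.96 for Zeb1, 0.94 for Sparc and 0.91 for Vim. It was 0.87 for Snai2, 0.83 for Zeb2, 0.75 for Fn1 and 0.72 for Cdh2. Among the 20247 other probes well above background on all arrays, the genes most like Twist1 were Pnrc1 (r = 0.995), Gm7997 (r = 0.993) and Aga (r = 0.993). Pnrc1, which encodes a nuclear receptor coactivator, averaged 1777 ± 90.1 units in control cells, 1150 ± 19.9 units after IFN-λ2 and 1599 ± 134 units after IFN-β. Aga, which encodes the lysosomal enzyme aspartylglucosaminidase, averaged 1906 ± 12.6, 1481 ± 43.3 and 1817 ± 85.4 units in the same order.

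Other mesenchymal genes, 35 in number of which 25 passed the filter on dim signals, included 7 that fell and 1 that rose after IFN-λ2 compared with control (limma, adjusted p under 0.05 over all probes), where 8.28% of all tested probes were lower and 10.9% higher. Their median log2 difference was -0.34, compared with 0.01 over all probes, and it was -0.11 with normexp background correction and -0.22 with a floor of 50 units. This list and the lists below were chosen with earlier results of these data known. Their counts beside the shares over all probes are therefore a description. Cnn1, which encodes the smooth muscle protein calponin, fell from 209 ± 16.8 to 71.2 ± 8.32 units (log2 difference -1.56, SE 0.12, limma adjusted p = 0.000275). Mmp2, a gelatinase, fell from 203 ± 22.1 to 94.3 ± 9.85 units (-1.11, adjusted p = 0.00166). Fstl1, which encodes a secreted follistatin-like glycoprotein, fell from 5639 ± 1188 to 2799 ± 288 units (-0.999, adjusted p = 0.00795). Cdh11, which encodes OB-cadherin, fell from 112 ± 22.7 to 39.1 ± 18.4 units (-1.64, adjusted p = 0.0454). The same 4 genes were lower after IFN-λ2 than after IFN-β, by -1.22 for Cnn1 (limma adjusted p = 0.000981), -0.84 for Mmp2 (0.00493), -1.37 for Fstl1 (0.00223) and -1.65 for Cdh11 (0.0423). The second probe of Cdh11 gave -0.46 and -0.31. Both calls of Cdh11 were lost with normexp background correction. They were also lost without either control array, without IFN-λ2 replicate 1 or 3 and without IFN-β replicate 2 or 3 (adjusted p up to 0.179), and the call against IFN-β without IFN-β replicate 1 as well.

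Fap, which encodes the fibroblast activation protein, moved opposite to the members and was the gene of this list that rose. It averaged 168 ± 9.82 units after IFN-λ2 and 89.3 ± 8.79 units after IFN-β, and was not well above background on either control array (15.8 ± 1.13 units). Its signal was at least 10.1-fold higher than control after IFN-λ2 (limma adjusted p = 3.21e-06) and at least 5.39-fold higher after IFN-β (adjusted p = 2.17e-05). These bounds set the mean log2 signal of the stimulated arrays against, for each control array, the higher of its own signal and the lowest signal well above background. It was also higher after IFN-λ2 than after IFN-β, by 0.91 on the log2 scale (SE 0.09, limma adjusted p = 0.00182). Fap was the only gene of the list that passed for IFN-β against control.

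Genes of TGF-β signaling, the pathway upstream of the transition factors, included some that fell and some that rose. Of 23 ligands, receptors, SMADs and targets, all of them tested, 4 fell and 2 rose after IFN-λ2 compared with control, 5 were lower and 0 higher than after IFN-β, and 0 passed for IFN-β against control. Over all tested probes, 8.28% were lower and 10.9% higher than control, and 5.34% lower and 6.21% higher than after IFN-β. Between IFN-β and control, 3 genes had an unadjusted p under 0.05 in the limma fit and 2 with the methods' t-test. The median log2 difference of the list was -0.07 from control and -0.08 from IFN-β, and neither direction was stable. It turned to 0.03 from control without control replicate 2 (-0.13 to 0.03 over the fits that left out 1 array) and to 0.02 from IFN-β without IFN-β replicate 3 (-0.08 to 0.02). Tgfbi, a matrix protein gene named for its induction by TGF-β, fell from 289 ± 13.3 to 102 ± 6.11 units (log2 difference -1.50, limma adjusted p = 0.00245) and was lower than after IFN-β by -1.61 (adjusted p = 0.00197). Smad6, an inhibitory SMAD, fell from 648 ± 43.3 to 467 ± 22.1 units (-0.47, limma adjusted p = 0.00715). Among the ligands, Tgfb2 fell by 0.82 on the log2 scale (limma adjusted p = 0.0289), Tgfb1 fell by 0.35 (adjusted p = 0.0234), and Tgfb3 was lower than after IFN-β by -1.04 (adjusted p = 0.0284). Tgfbr2, the type II receptor, rose by 0.44 on the log2 scale (limma adjusted p = 0.0149), although its second probe differed by 0.17, and Smad7, the other inhibitory SMAD, rose by 0.28 (adjusted p = 0.0327).

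The calls of Tgfbi and Smad6 held when any array was left out, and the others did not. With the replicate block, Tgfb1 and Smad7 did not pass against control (adjusted p = 0.0540 and 0.0714). With normexp background correction 0 genes of the list were higher and 3 lower than control, and the calls of Tgfbr2, Smad7 and Tgfb1 against control and of Tgfb2 against IFN-β were lost. For IFN-λ2 against control, Tgfb1 did not pass without control replicate 2 or 3 or IFN-λ2 replicate 1 or 3 (adjusted p up to 0.0973), and Tgfb2 without control replicate 3 or any IFN-λ2 array (up to 0.148). Tgfbr2 did not pass without either control or IFN-λ2 replicate 1 (up to 0.0646), and Smad7 without either control, IFN-λ2 replicate 1 or 3 or IFN-β replicate 2 or 3 (up to 0.106). For IFN-λ2 against IFN-β, Tgfb3 did not pass without IFN-λ2 replicate 1 or 3 or IFN-β replicate 2 or 3 (up to 0.104). Tgfb2 was lower than after IFN-β by -0.69 (limma adjusted p = 0.0493), which was lost without any of the 6 interferon arrays (up to 0.145) and with the replicate block (adjusted p = 0.0763).

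Partners and co-repressors of the transition factors, 18 genes, had 4 that fell and 2 that rose after IFN-λ2 compared with control, 4 that were lower than after IFN-β, and 0 that passed for IFN-β against control (3 at an unadjusted p under 0.05 in the limma fit, 2 with the methods' t-test). The shares over all tested probes were 8.28% lower and 10.9% higher than control and 5.34% lower than after IFN-β. The E-proteins are helix-loop-helix partners of TWIST factors, and ID proteins sequester E-proteins. Tcf4, an E-protein gene, fell from 1137 ± 85.4 to 724 ± 57.9 units (log2 difference -0.65, limma adjusted p = 0.00832), and Tcf3, another one, fell from 4863 ± 39.0 to 3616 ± 39.4 units (-0.43, adjusted p = 0.00450). Both were also lower than after IFN-β, by -0.54 (limma adjusted p = 0.0158) and -0.29 (adjusted p = 0.0173). Among the ID genes, Id1 fell by 0.36 on the log2 scale (limma adjusted p = 0.0198) and was lower than after IFN-β by -0.45 (adjusted p = 0.00851), whereas Id2 rose by 0.41 (adjusted p = 0.0134). Id4 was not well above background after IFN-λ2, and its signal after IFN-β was at least 1.88-fold higher (limma adjusted p = 0.0333). The difference of Id4 turned to 0.10 with normexp background correction. Gsk3b, a kinase that marks SNAIL for degradation, fell by 0.37 (limma adjusted p = 0.0420), and Fbxl14, a ubiquitin ligase subunit acting on SNAIL, rose by 0.45 (adjusted p = 0.0482).

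Several of these calls depended on single arrays, and with the replicate block Gsk3b and Fbxl14 did not pass (adjusted p = 0.0669 and 0.109). The median log2 difference of the list from control was -0.13 and became -0.05 with normexp background correction. With that correction 0 genes were higher and 2 lower than control, and the calls of Id2, Fbxl14, Id1 and Gsk3b against control and of Tcf3 and Id4 against IFN-β were lost. Compared with control, Tcf4 did not pass without control replicate 3 (adjusted p = 0.0564), Id2 without control replicate 3 or IFN-λ2 replicate 1 (up to 0.0710), and Id1 without control replicate 2 or IFN-λ2 replicate 2 or 3 (up to 0.0874). Gsk3b did not pass without control replicate 3, any IFN-λ2 array or IFN-β replicate 2 or 3 (up to 0.185), and its other probes gave 0.11 and -0.47. Of the 8 fits that left out 1 array, Fbxl14 passed in the one without control replicate 2 alone (up to 0.208 in the others). Compared with IFN-β, Tcf3 and Id4 did not pass without IFN-λ2 replicate 1 or 3 or IFN-β replicate 2 or 3 (up to 0.0723 and 0.120).

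Epithelial genes, many of them known targets of repression by SNAI, ZEB and TWIST factors, included genes that rose and genes that fell. Of 28 genes, 10 rose and 6 fell after IFN-λ2 compared with control, where 10.9% of all tested probes were higher and 8.28% lower, with a median log2 difference of 0.18. With the replicate number, which is also the slide, as a block, 5 were higher and 2 lower than control. Compared with IFN-β, 8 were higher and 2 lower, with a median of 0.13, where 6.21% of all tested probes were higher. For IFN-β against control 0 passed, with 3 at an unadjusted p under 0.05 in the limma fit and 3 with the methods' t-test. Rab25, a small GTPase of apical recycling, rose from 898 ± 72.4 to 1508 ± 150 units (log2 difference 0.75, limma adjusted p = 0.00631) and was higher than after IFN-β by 0.67 (adjusted p = 0.00915). Ocln, which encodes the tight junction protein occludin, rose from 1404 ± 197 to 2107 ± 104 units (0.59, limma adjusted p = 0.0156) and was higher than after IFN-β by 0.63 (adjusted p = 0.0113). Ovol1, a zinc-finger factor that maintains epithelial identity, rose by 0.63 (limma adjusted p = 0.00982), and Dsp, which encodes desmoplakin of the desmosome, rose by 0.65 (adjusted p = 0.0206), although the second probe of Dsp differed by -0.05. Krt19, a keratin gene, was higher than after IFN-β by 0.60 (limma adjusted p = 0.00501).

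Among the genes of the same list that fell were 2 of its claudin genes and both Esrp genes. Cldn3 fell from 42504 ± 6072 to 27589 ± 440 units (log2 difference -0.62, limma adjusted p = 0.0109) and Cldn4 from 2866 ± 179 to 1997 ± 153 units (-0.52, adjusted p = 0.00821), whereas Cldn7 did not pass (-0.04, SE 0.13, adjusted p = 0.868). Esrp1 and Esrp2, which encode splicing regulators of epithelial isoforms, fell by 0.45 (limma adjusted p = 0.0189) and 0.51 (adjusted p = 0.0138). Tjp3 and Cldn4 were also lower than after IFN-β, by -0.37 (limma adjusted p = 0.0188) and -0.35 (adjusted p = 0.0341). With the replicate block, 4 genes were higher and 0 lower than after IFN-β, and Dsp (higher by 0.50, limma adjusted p = 0.0489 without the block), Tjp3 and Cldn4 did not pass, with adjusted p of 0.114, 0.0593 and 0.0553. Against control, the calls of Ocln, Dsp, Esrp1 and Esrp2 were lost with the replicate block, at adjusted p of 0.0579, 0.0658, 0.0505 and 0.0541. The median from control was 0.11 with quantile normalization and 0.12 without IFN-λ2 replicate 2, and the median from IFN-β was 0.08 without that array. With normexp background correction 6 genes were higher and 3 lower than control, without Esrp2 among those named, and 3 higher and 0 lower than after IFN-β, without Dsp, Tjp3 and Cldn4. The count was sensitive to single arrays. Without control replicate 3, 2 genes were higher and 3 lower than control, and without IFN-λ2 replicate 1, 5 were higher and 2 lower than control and 2 higher and 0 lower than after IFN-β. Against control, Ovol1 did not pass without control replicate 3 (adjusted p = 0.0631), Ocln and Esrp2 without control replicate 3 or IFN-λ2 replicate 1 (up to 0.0836 and 0.0710), and Cldn3 without control replicate 2 (0.0515). Dsp did not pass without control replicate 3 or IFN-λ2 replicate 1 or 3 (up to 0.107), and Esrp1 without control replicate 2 or IFN-λ2 replicate 1 or 3 (up to 0.0681). Against IFN-β, Ocln did not pass without IFN-λ2 replicate 1 (0.0513), Tjp3 without IFN-λ2 replicate 1 or 3 or IFN-β replicate 2 (up to 0.0812), and Dsp and Cldn4 without any of the 6 interferon arrays (up to 0.159 and 0.103). The calls of Rab25 in both comparisons, of Cldn4 against control and of Krt19 against IFN-β held when any array was left out.

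**Figure D4:**
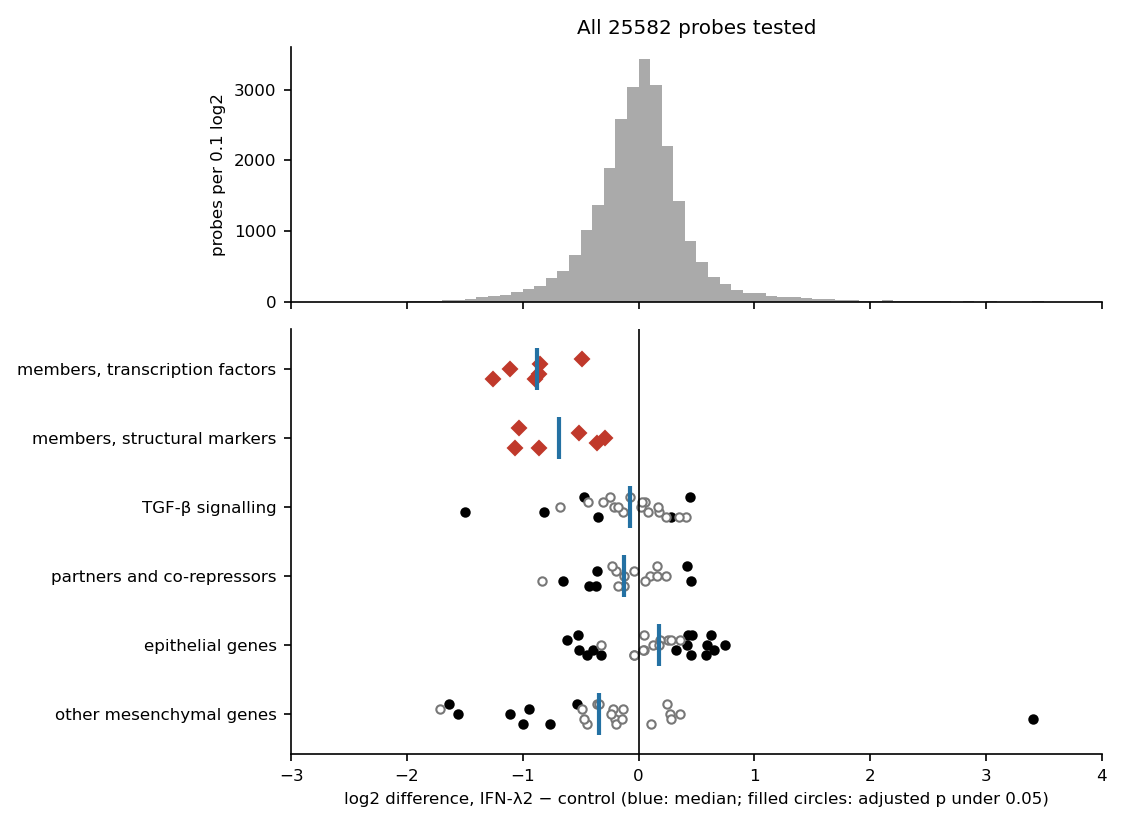
Log2 difference of IFN-λ2 from control. The upper panel is the distribution over all 25582 tested probes, and the lower panel shows 1 point per member probe or listed gene, with medians as blue bars. Medians are -0.88 for member factors, -0.68 for member markers, -0.07 for TGF-β signaling, -0.13 for partners, 0.18 for epithelial genes and -0.34 for other mesenchymal genes, with Fap alone at the far right.

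Markers of the cell types that the cultures could hold were measured on the same arrays. Of 14 intestinal epithelium markers, 9 were well above background on all 8 arrays, including Cdh1, Epcam, Vil1, Krt18 and Krt20, whereas Cdx2 and Muc2 were not well above background on any array. Of the 11 epithelium markers tested, 5 rose after IFN-λ2 compared with control and 0 fell, where 10.9% of all tested probes were higher. They are named after their values were seen. Cdh1, Epcam, Krt8, Krt18 and Krt19 are also in the list of epithelial genes above, so that the rises of Cdh1 and Krt19 are counted in both. Cdh17, which encodes an intestinal cadherin, was at the floor of 15 units on both control arrays and not well above background there, averaged 34.5 ± 5.57 units after IFN-λ2 with 2 of 3 arrays well above background, and was thus at least 2.07-fold higher (limma adjusted p = 0.00150). Krt20 rose by 0.74 on the log2 scale (limma adjusted p = 0.00266), Fabp2, which encodes a fatty acid binding protein of enterocytes, by 0.67 (adjusted p = 0.00212) and Krt19 by 0.42 (adjusted p = 0.0197). Fabp2 was dim, and with a floor of 50 units its difference became 0.29 (limma adjusted p = 0.0230). The call of Krt19 was lost with normexp background correction and without either control array or IFN-λ2 replicate 2 or 3 (adjusted p up to 0.107). Cdh1, which encodes E-cadherin, a classical target of the transition factors, rose by 0.45 (SE 0.11, limma adjusted p = 0.0256). The call of Cdh1 was lost with the replicate block (adjusted p = 0.0712), with normexp (0.0531) and without either control array or IFN-λ2 replicate 1 or 3 (adjusted p up to 0.130), and it did not pass against IFN-β (log2 difference 0.23, limma adjusted p = 0.175). Of 11 fibroblast and smooth muscle markers, 0 were well above background on all 8 arrays. All but Des and Myh11 are also in the list of other mesenchymal genes. Tagln, Cnn1, S100a4 and Postn of that list, which are not among the 11, were well above background on all 8 arrays. Col3a1, Lum, Pdgfra, Pdgfrb, Des and Myh11 were not well above background on any. The summed signal of these 11 was 219.3 to 219.9 units on control arrays, 196 to 209 units after IFN-λ2 and 220.4 to 324 units after IFN-β. Of 6 endothelium markers, Kdr was well above background on all 8 arrays, and Cdh5, Tek and Emcn were not on any. Of 7 leukocyte markers, 4 were well above background on all 8 arrays. The summed signal of all 7 was 9871 to 13138 units in control cells, 7922 to 10087 units after IFN-λ2 and 8360 to 14895 units after IFN-β. No tested marker of these fibroblast, endothelium and leukocyte lists passed in any of the 3 comparisons in the limma fit. At an unadjusted p under 0.05 in that fit, 1, 0 and 3 did for IFN-λ2 against control. Cnn1, Mmp2, Cdh11 and Fap, which passed as given above, are not in these lists. The part of leukocyte markers in the values of the members was not tested.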

How the data were processed

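RNA of IEC10 cells was labelled with Cy3 and hybridized to 1-color Agilent whole mouse genome arrays, 8 of which were analyzed here (2 control, 3 IFN-λ2, 3 IFN-β). Control replicate 1 was not analysed here. Groups and replicate numbers were taken from the sample labels. The authors deposited scanner files written by Feature Extraction 10.7.3.1, whose gProcessedSignal is an intensity after background subtraction, together with a linear table of their normalized intensities. The members and gene lists were chosen with earlier results of these data known.

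Excluded were features with a flag or outlier mark, features that deviated from their copies on the chip by more than 1.42 interquartile ranges, and features whose pixels varied by a coefficient above 0.5 (313 to 424 of 43020 non-control features per array). Intensities were averaged geometrically per probe, multiplied by 1500 over the 75th percentile of the array's non-control features (factors of 0.628 to 0.712), floored at 15 units and converted to log2. The member values so obtained differed from the deposited table by at most 0.0566%. No probe was saturated. Tests covered 25582 of 39429 probes, those exceeding 15 units on 2 or more arrays.

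A linear model with 1 mean per group was fitted in limma 3.58.1 (R 4.3.3) across the 8 arrays, with Benjamini-Hochberg adjustment over all tested probes at 0.05. The fit was run on simulated data with larger differences than those of the members and no slide effect. That run does not tell how well differences of the members' size are found. A gene with several probes is represented by the brightest one. All members are named. From each of the 4 pathway lists, up to 4 genes per direction and comparison are named, those with the largest log2 difference among genes that passed and were well above background on every array of at least 1 group. Outside this rule, Cldn7 and the cell type markers are named, chosen after their values were seen. For likeness, the 3 genes with the highest Pearson's r to the member with the widest span of group means are named. Names follow RefSeq accessions, symbols or synonyms of GRCm38.p6 where they matched (26412, 3854 and 742 probes), and 8421 probes kept the name of the array design. Python 3.11.15 with pandas 2.3.3 served for the tables.

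Each slide holds 1 replicate number and was scanned at once. Deviations from group means of same-numbered IFN-λ2 and IFN-β arrays correlated across probes at 0.185, 0.251 and 0.299 for replicates 1, 2 and 3, so that the numbers pair these arrays. For control with IFN-λ2 the correlations were -0.01 and -0.02, and for control with IFN-β 0.10 and -0.08, over 2 pairs each. Alternatives were quantile normalization, normexp background correction, a floor of 50 units or none, other filters on dim probes, the deposited table, no excluded features, leaving out each array, the replicate block, only the 2 groups compared, a trended and robust variance prior, a 2-fold criterion, the mean over a gene's probes and the methods' t-test.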

Additional observations from a re-analysis of the deposited data

How the results depend on the processing

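Of 190 alternative values of the members' log2 differences, 189 were negative when IFN-λ2 was compared with control and 189 when it was compared with IFN-β, the exception in each being Snai1 with normexp. These values are for the brightest probe of each gene or the mean over its probes. The second probes of Cdh2 and Sparc were not followed on their own, and that of Cdh2 was not lower than control replicate 3 alone. Normexp with an offset of 50 compresses dim probes and moved the median of all probes to 0.10 and 0.08, against which the members' median stood at -0.71 and -0.69. It also ended the calls of Snai2 and Zeb2 in both comparisons and of Cdh2 against IFN-β.

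Counts of passing member probes were 8 (IFN-λ2 and control), 0 (IFN-β and control) and 10 (both interferons). The replicate block left 8, 0 and 8, quantile normalization gave 10, 0 and 9. With a 2-fold criterion the first and last became 4 and 3, with the methods' t-test at p of 0.001 and 2-fold 1 and 1, and with that test after Benjamini-Hochberg and 2-fold 2 and 3. Leaving out 1 array gave 6 to 9 and 6 to 9. For IFN-β against control, 0 probes passed in any alternative run. Nothing is read from these counts, because the members were chosen on their values in these arrays. Counts over all probes, given below for part of the settings, also moved with the setting.

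Of the listed pathway genes, 36, 1 and 27 passed in the same order. Normexp gave 22 and 15 for the comparisons of IFN-λ2, the 2-fold criterion 5 and 6, the methods' t-test at p of 0.001 and 2-fold 2 and 2, and after Benjamini-Hochberg and 2-fold 3 and 3. Pairing by the replicate block gave 24, 1 and 20, and leaving out 1 array 15 to 35, 1 to 2 and 12 to 26. For IFN-β the count was 2 with a floor of 50, with no filter and with the trended prior, and 0 with the methods' t-test after Benjamini-Hochberg and 2-fold. A fit without 1 control array assumes that the other varies like the remaining groups.

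Over all probes, 4915, 441 and 2955 passed. Normexp gave 2341, 274 and 1609, the 2-fold criterion 987, 239 and 557, the methods' t-test at p of 0.001 and 2-fold 368, 160 and 281, and after Benjamini-Hochberg and 2-fold 623, 78 and 398. For IFN-β against control the replicate block gave 266 and the fit of only these 2 groups 241. Leaving out 1 array gave 2699 to 5326, 302 to 386 and 1497 to 2786. The cause of these shifts was not tested. Signal over background limits Snai1 and the second probe of Zeb2.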
